A study of Mus musculus with 22 samples.

Results

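In the mouse, 1028 windows of 1 kb were highly methylated in wild-type E10.5 embryos and lowly methylated in wild-type fetal liver at both E14.5 and E18.5. They were chosen from 574594 tiles on chromosomes 1 to 19, each holding 8 or more CpGs with 6 or more reads in every one of the 12 whole genome bisulphite libraries, and make up 0.179% of them. The level of a tile is the summed count of unconverted (methylated) reads over all reads of its CpGs, given as a percentage, and the thresholds were a wild-type mean of at least 70% in the embryos and under 30% at each liver stage. The 1028 tiles are called the liver-low tiles here. The wild-type fall therefore comes from the choice and is given as a description, while the 6 mutant libraries took no part in the thresholds. The mutant libraries did enter the coverage rule.

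The study asked how loss of Rlf, a widely spaced zinc finger protein, changes DNA methylation. Wild-type mice were compared with mice homozygous for MommeD28, an ENU-induced null allele of Rlf (MommeD28/MommeD28), in whole E10.5 embryos, E14.5 liver and E18.5 liver, with 2 libraries per genotype and tissue. RNA-seq covered 3 wild-type and 3 mutant E14.5 livers. All mice were FVB and, per the study's methods, of a line homozygous for a multicopy GFP reporter that alpha-globin regulatory sequences drive in red blood cells, so controls and mutants both carry it. All E10.5 embryos were male and all E18.5 livers female, while E14.5 livers were 1 male and 1 female per genotype for methylation and 2 males and 1 female per genotype for RNA. Between embryo and liver, tissue and stage cannot be told apart, nor, at E18.5, can sex. At E14.5 replicate 1 of either genotype was male, as the embryos were, and replicate 2 female. The 4 E14.5 livers used for methylation were littermates, and for the other libraries the litter is not given in the sources used here, so p-values measure the spread between these samples only.

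Methylation of CpGs is copied at each cell division by the maintenance methyltransferase Dnmt1, and is removed either by failure of this copying or by oxidation through the Tet enzymes. Most of the genome outside CpG islands is methylated, and short stretches of low methylation away from promoters commonly lie at enhancers that bind the transcription factors of that cell type. At E14.5 the liver is the main blood-forming organ, rich in erythroblasts whose genes are driven by GATA factors, Klf1 and Nfe2. It also holds myeloid cells, which use PU.1, and hepatoblasts, which use Foxa and Hnf4a. Per the paper, erythroblasts make up most cells of the E14.5 liver but a small share at E18.5, when hepatoblasts are the dominant cell type.

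Windows of 120 bp from 6 liver-low tiles are shown so that the letters behind the shares can be seen. Each holds at least 2 matches to the motifs followed below. Most windows taken in the same way held 1 match, as at E2f2, Kit and Runx1. Those by 1700013D24Rik, Glrp1 and 9030625A04Rik held 2 and are not shown. They are the plus strand of the mm9 (NCBIM37) reference, 5′ to 3′, with motif matches in capitals. Each window was chosen within its tile for its number of matches. A match on the minus strand appears as its reverse complement: TTATCT is AGATAA on the other strand. Likewise, TTATCA is the reverse complement of TGATAA. In the same way CTTCCTC is that of the PU.1 form GAGGAAG. Zfpm1 encodes a cofactor of GATA factors, Bpgm the red cell enzyme that makes bisphosphoglycerate, Slc44a1 a choline transporter, Fli1 an ETS factor of megakaryocytes, Nr5a2 a nuclear receptor of the liver, and Sgk1 a kinase induced by glucocorticoids.
Zfpm1, intron, chr8:124833361-124833480: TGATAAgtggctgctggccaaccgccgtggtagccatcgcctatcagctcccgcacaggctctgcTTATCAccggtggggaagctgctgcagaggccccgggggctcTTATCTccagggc
Bpgm, upstream, chr6:34421583-34421702: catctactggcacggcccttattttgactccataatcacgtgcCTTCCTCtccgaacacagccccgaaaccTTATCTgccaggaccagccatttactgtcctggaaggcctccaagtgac
Slc44a1, upstream, chr4:53399348-53399467: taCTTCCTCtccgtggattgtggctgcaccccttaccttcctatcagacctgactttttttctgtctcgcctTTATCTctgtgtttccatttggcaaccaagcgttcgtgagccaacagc
Fli1, intron, chr9:32307787-32307906: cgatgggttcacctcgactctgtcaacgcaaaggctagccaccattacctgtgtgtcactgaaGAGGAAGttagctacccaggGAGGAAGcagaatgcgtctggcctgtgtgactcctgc
Nr5a2, intron, chr1:138815372-138815491: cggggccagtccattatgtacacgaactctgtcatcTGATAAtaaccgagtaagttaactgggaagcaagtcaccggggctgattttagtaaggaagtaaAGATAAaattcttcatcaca
Sgk1, intergenic, chr10:21559182-21559301: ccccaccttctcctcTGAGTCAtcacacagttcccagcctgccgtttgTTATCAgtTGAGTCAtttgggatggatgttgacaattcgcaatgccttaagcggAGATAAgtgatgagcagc

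The CpGs inside these windows took part in the fall. In the Zfpm1 window, 6 covered CpGs were at 81.7% in wild-type embryos and 83.3% in mutant embryos, against 4.21% and 4.30% in the E14.5 livers of the same genotypes. The Bpgm window fell from 80.2% in mutant embryos to 9.41% in mutant E14.5 livers over 4 covered CpGs. In both of these windows E18.5 livers stood higher than E14.5 livers, at 16.6% for Zfpm1 and 23.0% for Bpgm in mutants. The Fli1 window, with 2 GAGGAAG matches, went from 82.2% in mutant embryos to 26.3% and 17.8% in mutant E14.5 and E18.5 livers.

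Depth differed between tissues, at 32.2 to 36.1 reads per listed CpG in E14.5 livers and 17.2 to 19.4 in the other tissues. Unconverted reads on the lambda control came to between 0.0412% and 0.0775%, which is small beside the levels below. One library stood apart. Mutant E18.5 liver replicate 1 had a mean over all tiles of 70.8%, against 66.6% to 67.2% in the other 3 E18.5 livers. The main means and counts that use it, and some calls, are therefore also given without it. The RNA libraries held 12928313 to 14621004 counts. Rlf messenger RNA was at 68.8 to 72.2 CPM in wild-type and 67.5 to 79.7 CPM in mutant livers, with overlapping groups. The RNA level of the mutated gene therefore does not check the labels. CPM are counts scaled to a common library total, with the scaling between libraries given under the processing. The hepatocyte gene Alb, which checks the liver label, was at 26622 ± 2881 CPM (SD, n = 3) in wild type, and the red cell membrane gene Slc4a1 at 5100.0 ± 746 CPM.

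In wild type, the libraries that chose the tiles, the mean over the liver-low tiles was 77.8% ± 0.913 (SD, n = 2) in E10.5 embryos, 18.6% ± 1.40 in E14.5 livers and 24.1% ± 0.378 in E18.5 livers. The mutants, which the thresholds did not use, were at 80.3% ± 0.370, 21.3% ± 0.0136 and 28.0% ± 2.65, the last being 26.1% without replicate 1. Over all tiles the mutant means were 78.6%, 64.1% and 69.0%, so the embryo level of the liver-low tiles was near that of all tiles and the liver level was far below it. In bulk tissue, a change in the share of a cell type and a change of methylation within its cells cannot be told apart.

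**Figure D1:**
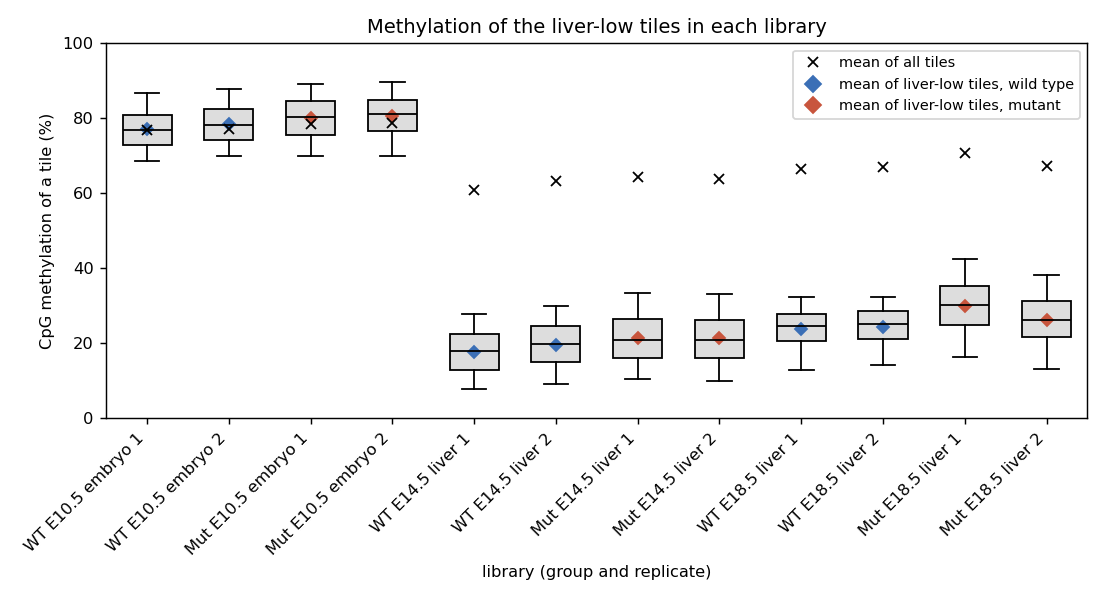
Methylation (%) of the 1028 liver-low tiles in each of the 12 libraries: boxes span the quartiles, whiskers the central 90% of tiles, diamonds the mean and crosses the mean of all 574594 tiles. All 4 embryo libraries have means of 77.2% to 80.6% and all 8 liver libraries of 17.6% to 29.9%, with mutant E18.5 liver replicate 1 the highest of the livers.

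The fall recurred in the mutants at every liver-low tile. Between mutant E10.5 embryos and mutant E14.5 livers, 1028 of 1028 were called lower in liver (edgeR quasi-likelihood test on methylated and unmethylated counts, Benjamini-Hochberg adjusted p under 0.05 over all tiles and a difference above 15 percentage points), beside 50.9% of all tiles, and 0 were called higher, beside 1.14%. The share of all tiles called is high because most of the genome was less methylated in liver, so size separates the liver-low tiles better than the call does. They fell by 59.1 points on average, against a fall by 14.53 points over all tiles, and 1012 of them (98.4%) fell by at least 40 points, as did 8620 of the 574594 tiles in all. The largest adjusted p among them was 3.25e-09. The male and the female mutant E14.5 liver had the same mean over the liver-low tiles, 21.3%.

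Against mutant E18.5 livers the result was alike. All 1028 were called lower in liver by edgeR, and 0 higher, beside 22.7% and 1.54% of all tiles, with a largest adjusted p of 7.46e-06. They fell by 52.4 points on average, while all tiles fell by 9.59 points. A fall of at least 40 points was seen at 961 (93.5%), against 0.777% of all tiles. Without mutant E18.5 replicate 1 they fell by 54.2 points and all tiles by 11.3 points, and 979 (95.2%) fell by at least 40 points, beside 1.04% of all tiles. In both comparisons every mutant liver library lay below every mutant embryo library at all 1028. The same held at 87.96% of all tiles for E14.5 livers and 78.3% for E18.5 livers.

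The thresholds themselves were each met by most, but not all, of the liver-low tiles in the mutants. Wild-type means meet them at every liver-low tile by the choice. The mutant counts could therefore not be higher, and no genotype difference is read from them. Of the liver-low tiles, 992 were at 70% or more in mutant embryos, 909 were under 30% in mutant E14.5 livers and 622 were under 30% in mutant E18.5 livers, or 709 without mutant E18.5 replicate 1. A looser limit, under 50% at both stages, was met by 1026. When the same thresholds were applied to the mutant means, 960 tiles met them, of which 569 were liver-low tiles, which is 55.4% of the wild-type set and 59.3% of the mutant set. Without mutant E18.5 replicate 1 it was 1176 tiles, of which 635 were liver-low tiles (61.8% and 54.0% of the sets). Fewer tiles also met the limits in a wild-type library that did not choose them. Of 1069 tiles chosen on replicate 1 alone, 941 reached 70% in replicate 2 of the embryos, 971 stayed under 30% in replicate 2 of E14.5 liver and 741 in that of E18.5 liver. Of 1071 tiles chosen on replicate 2 alone, 849 reached 70% in replicate 1 of the embryos, and 1048 and 802 stayed under 30% in replicate 1 of E14.5 and E18.5 liver.

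Tiles on either side of a limit were near-equal. Capzb, which encodes an actin capping protein, had an intron tile just inside the embryo limit, at 72.7% and 67.4% in the wild-type embryos. C5ar1, the complement C5a receptor gene, had one just outside, at 70.9% and 69.1%. At the E18.5 limit, an Rbl2 intron tile at 30.2% and 29.8% was inside and a tile by Oasl1 at 27.3% and 32.7% was outside.

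The fall was local. CpGs were pooled in 200 bp bins by distance from the tile centres. In the mutants, the bins centred within 300 bp were at 80.6% in embryos, 20.2% in E14.5 livers and 27.0% in E18.5 livers. E18.5 replicate 2 alone was at 25.1%. In bins centred 500 to 900 bp away, the nearest of which overlap the tile edges, the liver levels were already 41.6% and 47.2%. E18.5 replicate 2 alone was at 45.1% there. At 1 to 2 kb the liver levels were 54.3% and 57.0%, and at 3 to 5 kb 59.95% and 62.7%. At these distances E18.5 replicate 2 alone was at 55.1% and 60.9%. Embryo levels went the other way, from 80.6% at the centres to 70.5% at 1 to 2 kb and 72.9% at 3 to 5 kb. The centres were chosen for high embryo and low liver levels, so the depth of the dip in wild type is given by the choice, and the mutant profile shows its width in libraries that did not choose it.

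**Figure D2:**
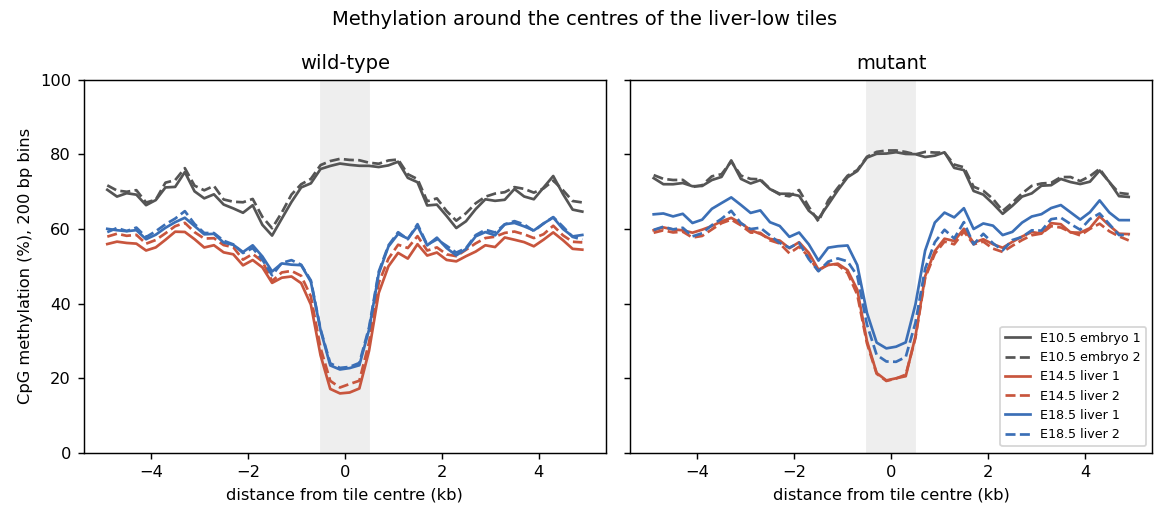
Mean CpG methylation (%) in 200 bp bins up to 5 kb either side of the centres of the liver-low tiles, in wild-type (left) and mutant (right) libraries; grey marks the 1 kb tile. In all 8 liver libraries the level dips within about the tile width, while the 4 embryo lines stay high. In mutant E14.5 livers it dips to 20.2% in the bins centred within 300 bp, from 59.95% at 3 to 5 kb.

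Within the tiles, most CpGs were low in liver, which largely follows from the low level of the tiles chosen. Of 12908 covered CpGs in the liver-low tiles, 77.1% were under 30% in mutant E14.5 livers and 59.6% in mutant E18.5 livers (63.0% without replicate 1), and 83.1% were at 70% or more in mutant embryos. Even so, a CpG at 70% or more remained now and then in liver, at 2.26% of CpGs in mutant E14.5 and 3.62% in mutant E18.5 livers (3.45% without replicate 1). Only 157 tiles (15.3%) had every covered CpG under 30% in mutant E14.5 livers.

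The 10 tiles with the steepest wild-type fall mark the far end of the set. The steepest lay within Slmap, which encodes a membrane-associated protein, with the transcription start site (TSS) of the Gm2178 gene model 1460 bp from the tile centre (chr14:27335001-27336000). It was at 86.5% and 86.5% in wild-type embryos, 6.16% and 4.34% in wild-type E14.5 livers and 7.14% and 5.39% in wild-type E18.5 livers. Its mutant libraries gave 86.0% and 79.0% in embryos, 6.16% and 5.49% in E14.5 livers and 3.82% and 7.41% in E18.5 livers. Embryo and liver libraries were separated by more than 70 points in both genotypes.

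Within Taok3, a kinase gene, the tile chr5:117583001-117584000 was at 89.2% and 88.2% in mutant embryos, 10.99% and 6.52% in mutant E14.5 livers and 13.9% and 10.8% in mutant E18.5 livers. An intron tile of Akap13, which encodes a scaffold of protein kinase A (chr7:82757001-82758000), was at 80.7% and 85.8% in mutant embryos and between 4.21% and 5.04% in all 4 mutant livers. A tile in an intron of Eps15l1 whose nearest start is that of Klf2, a transcription factor gene of endothelium and blood (chr8:74878001-74879000), was at 80.6% and 82.8% in mutant embryos and between 9.38% and 11.5% in the mutant livers. An intron tile of Prkce, the gene of protein kinase C epsilon (chr17:86607001-86608000), was at 78.1% and 84.4% in mutant embryos and between 3.65% and 8.05% in the mutant livers. All 4 tiles were under 15% in every mutant liver of both stages.

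Another of these 10 tiles holds the Slc44a1 window printed above. It lay upstream of that gene, which starts at position 53453285, by more than the 10 kb used below to count genes. This tile (chr4:53399001-53400000) was at 88.7% and 92.9% in wild-type embryos, 11.7% and 12.6% in wild-type E14.5 livers and 15.6% and 17.4% in wild-type E18.5 livers. The mutant values were 88.5% and 86.5% in embryos, 22.2% and 22.2% in E14.5 livers and 29.3% and 30.6% in E18.5 livers. The wild-type levels are extreme by choice, so nothing is read from the higher mutant livers, and both differences were under the 15 points that a call needs.

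The share of liver-low tiles at gene starts was above that of tiles in general, and the share in exons below it. A tile was counted as at a TSS if it held one or had an edge within 1 kb of one. Of the 1028, 152 (14.8%) were, beside 8.46% of all tiles and 3.82% of the 207099 tiles that stayed at 70% or more in all 3 wild-type tissues. Exons held 72 (7.004%), against 16.2% and 27.7%. Introns held 386 (37.5%) and the space between genes 418 (40.7%), against 32.5% and 42.8% of all tiles. The median distance from the tile centre, as in all distances to a TSS given in bp, to the nearest TSS was 17429.5 bp, beside 25131 bp for all tiles. The median GC content was 47.5% against 46.9%. The 1697 tiles that were under 30% at E14.5 but not at E18.5 had a lower share at a TSS, 7.07%.

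Most liver-low tiles had no other within 2 tiles of them. Across chromosomes the share of tiles ranged from 0.137% on chromosome 9 to 0.240% on chromosome 19. Adjacent or next-but-one tiles formed 37 runs with 76 members (7.39% of the liver-low tiles, which are 0.179% of all tiles). The longest runs had 3 members each, in Tnfaip8, which encodes a regulator of cell death (chr18:50187001-50191000), and by Fam102a (chr2:32349001-32352000). The Fam102a run averaged 78.7% in mutant embryos, 17.2% in mutant E14.5 livers and 23.3% in mutant E18.5 livers. The gene with the most liver-low tiles, other than Gm20388, a predicted model that spans several megabases and many genes, was Lcp1, with 5. It encodes an actin-bundling protein of white blood cells.

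The liver-low tiles differed from tiles in general in the share that held some motifs and little in others. Each motif was searched on both strands of the reference sequence of the whole 1 kb tile, and overlapping matches of different motifs were allowed. AGATAA, a form bound by GATA factors, occurred in 62.9% of liver-low tiles, beside 40.1% of all tiles and 38.0% of tiles that stayed methylated. TGATAA, another such form, occurred in 47.3% against 34.2% of all tiles. GAGGAAG, the core bound by PU.1 and related ETS factors, occurred in 52.5% against 32.4%.

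Other motifs differed less. TGAGTCA, shared by Nfe2 and AP-1, was in 20.9% of liver-low tiles and 16.5% of all tiles, and the E-box CAGCTG in 45.2% and 42.6%. The Klf form CACACC was in 52.7% and 53.7%. The hepatoblast factor forms TGTTTAC (Foxa) and CAAAGTC (Hnf4a) were in 14.4% and 16.4% of liver-low tiles, beside 13.3% and 14.97% of all tiles. AATAGA, the letters of AGATAA in another order, was in 35.4% and 36.3%.

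For both GATA forms, the Nfe2 form and the PU.1 form the share was above that of all tiles in each of 3 bands of GC content, while for the other 5 motifs the order changed with the band. The E-box CAGCTG, for one, was in 47.7% of liver-low tiles and 53.4% of all tiles at 50% GC and above. AGATAA was in 77.3% of liver-low tiles and 50.7% of all tiles of under 45% GC, in 63.4% and 39.8% at 45 to under 50% GC, and in 49.7% and 27.2% at 50% GC and above. GAGGAAG was in 45.8% and 25.7%, 53.2% and 33.8%, and 57.3% and 38.9% in the same bands. A GATA form and GAGGAAG occurred together in 39.7% of liver-low tiles and 18.7% of all tiles, and 7.98% of liver-low tiles held neither, against 26.7%. Of the tiles low at E14.5 only, 82.4% held a GATA form and 44.2% GAGGAAG, beside 79.2% and 52.5% of the liver-low tiles. Liver-low tiles with a GATA form and GAGGAAG averaged 20.6% in mutant E14.5 livers, those with a GATA form alone 20.7%, those with GAGGAAG alone 24.2% and those with neither 23.0%, a range that the limit of 30% in wild-type liver narrows. A match is a string of letters and not a measured binding site.

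**Figure D3:**
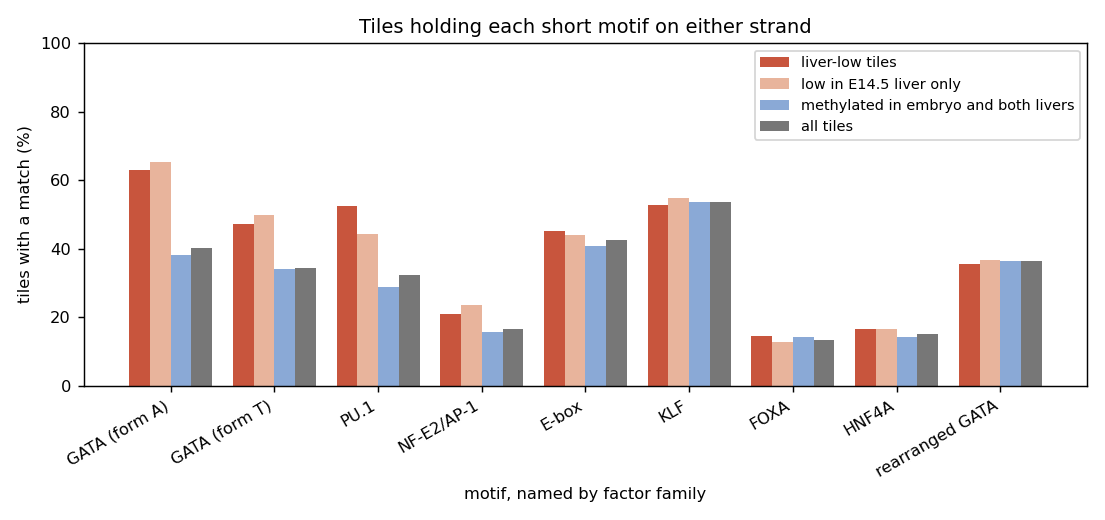
Share (%) of 1 kb tiles holding each of 9 short motifs on either strand, for the 1028 liver-low tiles, 1697 tiles low in E14.5 liver only, 207099 tiles methylated in embryo and both livers, and all 574594 tiles. The bars of liver-low tiles stand above those of all tiles for both GATA forms (62.9% and 40.1%, 47.3% and 34.2%) and for PU.1 (52.5% and 32.4%), and nearly level for the rearranged GATA letters (35.4% and 36.3%).

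The share of genes with a liver-low tile was higher in each of 5 cell type lists than over all protein-coding genes, and highest in the myeloid and megakaryocyte list. A gene was counted if a tile lay between 10 kb upstream of its TSS and its end. Of 19455 protein-coding genes with tiles, 658 (3.38%) had one. The share was 5 of 46 erythroid genes (10.9%), 5 of 27 myeloid and megakaryocyte genes (18.52%), 2 of 14 endothelial and mesenchymal genes (14.3%), 3 of 53 hepatic genes (5.66%) and 1 of 19 neural and muscle genes (5.26%). Long genes hold more tiles, and per 1000 tiles the numbers of liver-low tiles were 6.74 for the erythroid, 10.6 for the myeloid and megakaryocyte, 7.81 for the endothelial and mesenchymal, 3.50 for the hepatic and 2.36 for the neural and muscle list, beside 1.86 for all protein-coding genes. These counts rest on few genes and are a description. Tiles low at E14.5 only were found at 16 of the 46 erythroid genes (34.8%), 5 of the 27 myeloid and megakaryocyte genes (18.52%), 2 of the 14 endothelial and mesenchymal genes (14.3%), 2 of the 53 hepatic genes (3.77%) and 0 of the 19 neural and muscle genes, beside 5.31% of all protein-coding genes.

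Among erythroid genes, Zfpm1 had 3 liver-low tiles. The one in its intron that holds the printed window (chr8:124833001-124834000) was at 80.3% and 88.2% in mutant embryos and at 11.8% and 12.2% in mutant E14.5 livers. At E18.5 the mutants rose to 28.5% and 30.7% (17.6 points above E14.5, edgeR adjusted p = 0.000105), above both E14.5 libraries, and the wild-type livers likewise went from 9.88% and 11.01% to 29.9% and 23.1%.

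Gfi1b, which encodes a repressor needed for red cell and platelet formation, had an intron tile (chr2:28474001-28475000) at 80.7% and 79.9% in mutant embryos, 16.5% and 19.8% in mutant E14.5 livers and 28.7% and 17.9% in mutant E18.5 livers. E2f2, a cell cycle factor gene of erythroblasts, had an exon tile (chr4:135734001-135735000) at 87.2% and 87.0%, then 24.3% and 24.0%, then 35.9% and 33.6%. At Gypc, the glycophorin C gene of the red cell membrane, a tile at the TSS (chr18:32718001-32719000) went from 78.4% and 74.2% to 13.99% and 9.77%, and stood at 26.2% and 16.7% at E18.5. Embryo and liver libraries of the mutants were far apart at each of these genes.

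Among myeloid and megakaryocyte genes, Kit, the receptor of stem cell factor, had an intron tile (chr5:75975001-75976000) at 79.3% and 88.5% in mutant embryos, 13.7% and 11.9% in mutant E14.5 livers and 23.1% and 20.4% in mutant E18.5 livers. Runx1, a transcription factor gene of blood stem cells, had 3 liver-low tiles. Its TSS tile (chr16:92825001-92826000) was at 90.5% and 90.1%, 16.2% and 19.3%, and 32.4% and 22.2% in the same order. Pf4, which encodes a platelet chemokine, had one over its TSS (chr5:91201001-91202000) at 91.1% and 86.8%, 17.5% and 20.6%, and 28.1% and 38.1%. Csf1r, the macrophage growth factor receptor gene, had an intron tile (chr18:61267001-61268000) at 78.8% and 75.9%, 19.5% and 19.1%, and 24.3% and 32.6%. In none of these 4 did a mutant liver library reach a mutant embryo library, which was also so at most tiles in general.

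The hepatic list had 3 such genes. Trf encodes transferrin, the iron carrier that hepatocytes secrete, and its TSS tile (chr9:103132001-103133000) was unusual in going further down with stage, from 81.2% and 81.3% in mutant embryos to 24.0% and 23.3% in E14.5 livers and 17.5% and 10.4% in E18.5 livers. Its step between the liver stages fell by 9.70 points (edgeR adjusted p = 0.0449), under the 15 points of a call. G6pc, the gene of the enzyme that releases glucose, had an upstream tile (chr11:101226001-101227000) at 77.5% and 73.5%, 15.8% and 17.6%, and 17.9% and 21.1%, although its RNA was at most 0.132 CPM in any E14.5 liver. The endothelial genes Pecam1 and Kdr also had liver-low tiles, the Kdr exon tile (chr5:76329001-76330000) at 86.4% and 85.9%, 22.9% and 22.1%, and 34.4% and 32.3%.

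From E14.5 to E18.5, most of the liver-low tiles, like most tiles, had a higher mean in the mutants, and a minority passed the call. The mean was higher at E18.5 at 884 of 1028, or 773 without mutant E18.5 replicate 1, beside 500136 of all 574594 tiles, and at 665 (64.7%) both E18.5 libraries lay above both E14.5 libraries, beside 58.97% of all tiles. Without mutant E18.5 replicate 1 it was 698 (67.9%), beside 63.4%. Of the 1028, 88 (8.56%) were called higher at E18.5, beside 1.41% of all tiles, and 2 were called lower, beside 0.0419%. The mean step was +6.71 points, against +4.94 points over all tiles and +4.18 points over tiles that stayed methylated. Tiles low at E14.5 only moved by +12.2 points, and 540 (31.8%) of them were called higher, or by +9.91 points with 393 (23.2%) called without mutant E18.5 replicate 1. The lower bound on E18.5 methylation that separates these sets was set on wild type, so their difference in the mutants follows in part from the choice.

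The number of calls depended on the libraries. Measured against the mean of the mutant E14.5 livers, the liver-low tiles were +8.59 points in mutant E18.5 replicate 1, the library that stood apart, and +4.84 points in replicate 2, while all tiles were +6.69 and +3.19 points. Without mutant E18.5 replicate 1 the test called 68 higher, beside 1.16% of all tiles, and without replicate 2 it called 187, beside 5.62%. Without mutant E14.5 replicate 1 or 2 it called 7 and 6, beside 0.0265% and 0.0164%.

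The largest called step was at a tile 27805 bp from the TSS of Col14a1, a fibril-associated collagen gene (chr15:55111001-55112000). Its libraries were at 20.3% and 20.2% in mutant E14.5 livers and 50.4% and 42.3% in mutant E18.5 livers, a difference of 26.1 points (edgeR adjusted p = 1.21e-05), against 12.1% and 9.32%, then 24.7% and 19.04%, in wild type. A tile in an exon of Smcr7l nearest to the TSS of Atf4, a stress response factor gene (chr15:80081001-80082000), went from 14.4% and 14.8% to 38.6% and 39.8%, a difference of 24.6 points (edgeR adjusted p = 0.000133). The mutant stages did not overlap at either tile, but both tiles were chosen by the test of these same libraries.

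The Sgk1 tile (chr10:21559001-21560000) went from 17.6% and 18.4% to 49.1% and 32.5% in mutants, with replicate 1 far above replicate 2, and the Atp7b tile at the TSS of that copper transporter gene (chr8:23169001-23170000) from 15.4% and 18.9% to 47.1% and 31.8%. At Fbxo33, an F-box protein gene, the tile (chr12:60295001-60296000) went from 24.4% and 23.4% to 47.3% and 45.3%, alike in both E18.5 libraries. Both calls in the other direction were in introns. The Ston2 tile (chr12:92973001-92974000) went from 34.3% and 31.6% to 17.7% and 15.3%, and the Gpr98 tile (chr13:81491001-81492000) from 43.3% and 40.3% to 23.8% and 26.3%. Ston2 encodes an endocytic adaptor and Gpr98 an adhesion receptor.

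**Figure D4:**
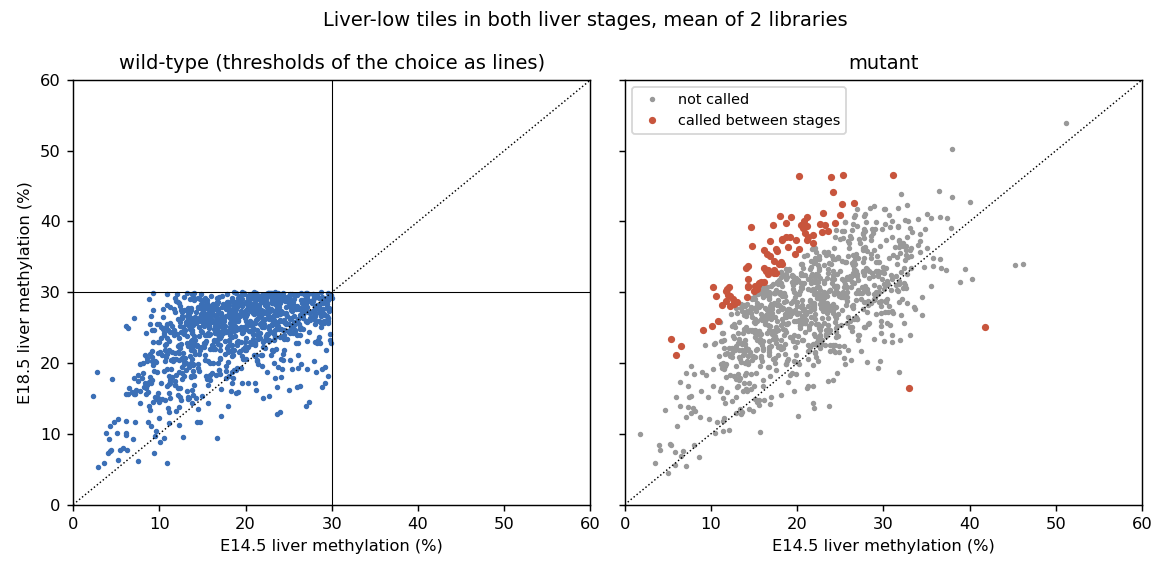
Methylation (%) at E14.5 against E18.5 of each liver-low tile, as the mean of 2 livers, in wild type (left, lines at the 30% limits that chose the tiles) and mutants (right, red where the stages were called different). Most points lie above the diagonal, with 88 called higher and 2 called lower at E18.5 in mutants.

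Between genotypes, the liver-low tiles were on average slightly more methylated in the mutants in all 3 tissues. The wild-type side of this comparison chose the tiles, which draws the wild-type liver means down and the embryo mean up, so no p is given. Mutants exceeded wild type by 2.52 points in embryos, 2.65 points in E14.5 livers and 3.90 points in E18.5 livers, beside 1.58, 1.96 and 2.26 points over all tiles. The E18.5 difference was 2.03 points without mutant replicate 1, the library that stood apart. All tiles were then at 67.2% in the mutant E18.5 liver, beside 66.7% in wild type. Without mutant replicate 2 the E18.5 difference was 5.78 points, and the E14.5 difference was 1.66 points without wild-type replicate 1. When the tiles were chosen on 1 wild-type replicate of each tissue and measured in the other, the differences were 2.36 and 4.104 points in embryos, 1.38 and 3.64 points in E14.5 livers and 2.26 and 3.07 points in E18.5 livers. For the same replicates all tiles differed by 1.42 and 1.74, 0.731 and 3.18, and 2.08 and 2.44 points. Each tissue kept its sign in both splits, and all tiles moved in the same direction in each. The splits at E18.5 include mutant replicate 1.

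Few single tiles passed the call between genotypes. In embryos 1 liver-low tile was called more methylated in mutants, beside 0.376% of all tiles. In E14.5 livers it was 4 (0.389%, beside 0.178%), and in E18.5 livers 8 (0.778%, beside 0.151%). No liver-low tile was called less methylated in mutants by edgeR in any tissue, beside 0.00261%, 0.00574% and 0.00331% of all tiles. At an unadjusted p under 0.05 in the same test, 9, 11 and 5 were less methylated in mutants and 163, 264 and 181 more methylated. Over all tiles 62791, 60441 and 44005 were under this limit in either direction. Because the rule used the wild-type levels, nothing is read from these shares and counts.

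Single libraries moved these counts, and the share of all tiles called moved too. In E18.5 livers 46 were called without mutant replicate 2, which leaves the library that stood apart alone, beside 0.992% of all tiles. It was 6 without mutant replicate 1 (beside 0.138%), 2 without wild-type replicate 1 (0.028%) and 0 without wild-type replicate 2 (0.0228%). In E14.5 livers 7 were called without wild-type replicate 2, beside 0.421% of all tiles, and 7 without mutant replicate 2, beside 0.168%. In embryos it was 7 without wild-type replicate 2, beside 0.608%, and 5 without either mutant, beside 0.401% and 0.346%. The test of whether the genotype difference changed between E14.5 and E18.5 livers called 0 liver-low tiles. Of all tiles, it called 0.0% for a larger and 0.000174% for a smaller difference at E18.5. At an unadjusted p under 0.05 in this test, 43 liver-low tiles had a larger and 34 a smaller difference at E18.5. Among all tiles, 18633 were under this limit in either direction. Wild-type livers of both stages chose the liver-low tiles, so nothing is read from the counts of this test.

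The 4 tiles called in E14.5 livers are given as a description, since wild-type livers of both stages chose them for low levels. A tile 50147 bp from the TSS of Gja1, a connexin gene of gap junctions (chr10:56157001-56158000), was at 77.0% and 86.9% in wild-type and 86.7% and 86.7% in mutant embryos. Its E14.5 livers were at 30.4% and 23.9% in wild type and 52.5% and 49.8% in mutants, and its E18.5 livers at 27.2% and 28.7%, then 54.7% and 53.1%. The mutant livers stood at 49.8% or more at both stages.

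A tile 88703 bp from the TSS of Rapgef2, which encodes an activator of Rap proteins (chr3:79038001-79039000), was at 22.3% and 18.7% in wild-type and 39.9% and 36.0% in mutant E14.5 livers, and at 31.2% and 24.6%, then 54.4% and 46.1%, at E18.5. All 4 of its embryo libraries were between 84.0% and 86.5%. By Gpr116, an adhesion receptor gene, a tile (chr17:43497001-43498000) was at 24.7% and 28.0% against 42.6% and 49.7% at E14.5, and at 17.4% and 22.4% against 37.3% and 30.7% at E18.5. All mutant livers were above 30% at these tiles. The fourth tile called was that of Kcnab2, given with its RNA.

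A larger share of the genes with liver-low tiles than of all genes was expressed in E14.5 liver. Their median wild-type level was 3.98 CPM per kb of exon, against 1.79 for all protein-coding genes with tiles, and 73.4% of 658 were at 1 CPM per kb or more, against 55.1%. With a liver-low tile at the TSS, 77.9% of 140 genes reached this level, against 60.6% of genes with a TSS tile that stayed methylated and 75.9% of 116 with a TSS tile low at E14.5 only. Of the 10 tiles with the steepest wild-type fall, those nearest to 1700013D24Rik, Glrp1 and 1700060C20Rik lay by models that gave no read in any E14.5 liver.

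Few of these genes passed the test of RNA between genotypes. Of 558 tested, 12 were higher in mutants (2.15%, beside 0.698% of all genes) and 7 were lower (1.25%, beside 0.691%), by edgeR at an adjusted p under 0.05. Among 120 genes with a liver-low tile at the TSS, 6 were higher (5.0%) and 5 were lower (4.17%), beside 0.707% and 0.641% of all genes with a TSS tile. With the replicate number as a block, 25 were higher and 11 lower, beside 1.85% and 1.39% of all genes. Single libraries again moved the count of higher genes, which was 2 without mutant replicate 1, 5 without mutant replicate 2, 6 without mutant replicate 3, 2 without wild-type replicate 1 and 5 without wild-type replicate 3. The share of all genes called higher was 0.188%, 0.369%, 0.432%, 0.243% and 0.314% in the same order. The summed level of 53 hepatic marker genes was 71207 to 82997 CPM in wild type and 85838 to 99157 CPM in mutants. Of the 48 of them tested, 2 were called higher and 2 lower (median log2 fold change 0.10), and neither Alb nor Afp, the fetal serum protein gene, which make up most of the sum, passed the test (edgeR adjusted p = 0.151 and 0.354). The erythroid list was at 53294 to 87448 and 61610 to 67295 CPM. The part of cell composition in these results was not tested.

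Aqp9, which encodes a water and glycerol channel of hepatocytes, had the largest change. It was at 22.9, 18.55 and 22.4 CPM in wild-type and 12.4, 10.2 and 12.6 CPM in mutant livers, a log2 fold change of -0.86 ± 0.12 (SE, edgeR adjusted p = 0.00547). A tile at one of its starts (chr9:71010001-71011000) was at 75.3% and 78.2% in wild-type and 88.9% and 87.6% in mutant embryos. In E14.5 livers the same tile was at 20.3% and 16.1% in wild type and 35.5% and 29.9% in mutants, and in E18.5 livers at 19.4% and 29.0%, then 46.7% and 38.1%. RNA and methylation came from different libraries.

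Kcnab2, a potassium channel subunit gene, also fell, and its tile was likewise higher in mutants. It went from 23.9, 28.8 and 24.4 CPM to 18.45, 16.6 and 15.2 CPM (log2 fold change -0.62 ± 0.10, edgeR adjusted p = 0.0159). Its tile at an internal start (chr4:151822001-151823000) was at 24.4% and 33.0% in wild-type and 45.5% and 45.1% in mutant E14.5 livers, and at 24.2% and 27.3%, then 34.4% and 33.3%, at E18.5. The wild-type livers of both genes helped to choose these tiles for low levels, so nothing is read from the methylation side of either pair. Aldh8a1, an aldehyde dehydrogenase gene, fell from 46.2, 37.3 and 34.7 CPM to 22.5, 22.2 and 21.9 CPM, while its TSS tile was at 23.8% and 33.8% in wild-type and 22.6% and 22.0% in mutant E14.5 livers. Lgals9, a galectin gene, fell by 0.60 on the log2 scale with its tile at 24.96% and 20.4% against 24.95% and 25.9%.

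Of the genes that rose, Mmrn1 and Pf4 encode platelet proteins. Mmrn1, the multimerin gene, rose from 24.3, 27.9 and 27.3 CPM to 39.2, 35.7 and 47.1 CPM (log2 fold change 0.62 ± 0.10, edgeR adjusted p = 0.0143). Pf4 rose from 155, 153 and 146 CPM to 186, 201 and 213 CPM (log2 fold change 0.40 ± 0.06, edgeR adjusted p = 0.0143). Their tiles at a TSS were chosen for low wild-type liver levels, so nothing is read from the genotypes there. In E14.5 livers that of Mmrn1 was at 13.98% and 13.1% in wild type and 9.78% and 16.8% in mutants. That of Pf4 was at 17.3% and 19.9%, then 17.5% and 20.6%. In the whole myeloid and megakaryocyte list of 27 measured genes, Pf4 was the single one called higher, and the eosinophil gene Prg2 and the neutrophil elastase gene Elane were called lower.

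Trf rose from 768, 700 and 804 CPM to 1030.2, 1169.7 and 924 CPM (log2 fold change 0.46 ± 0.09, edgeR adjusted p = 0.0289), with its TSS tile at 26.1% and 24.0%, then 24.0% and 23.3%. Other genes that rose were Card6, Ppm1e, Egln3, Ston2, Arhgap18 and Prkca, which changed by 0.44 to 0.72 on the log2 scale, and Cgnl1 and Treml2. Zfp507 and Tlcd2 fell by 0.69 and 0.67 on the log2 scale, and BC021614 also fell. An intron tile of Zfp507 (chr7:36581001-36582000) was at 21.1% and 27.8% in wild-type and 17.4% and 10.96% in mutant E14.5 livers, a lower level in mutants from which, by the same token, nothing is read. None of the erythroid genes with a liver-low tile passed the test, and Zfpm1 was at 436 ± 42.5 CPM in wild-type and 411 ± 23.1 CPM in mutant livers (SD, n = 3).

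**Figure D5:**
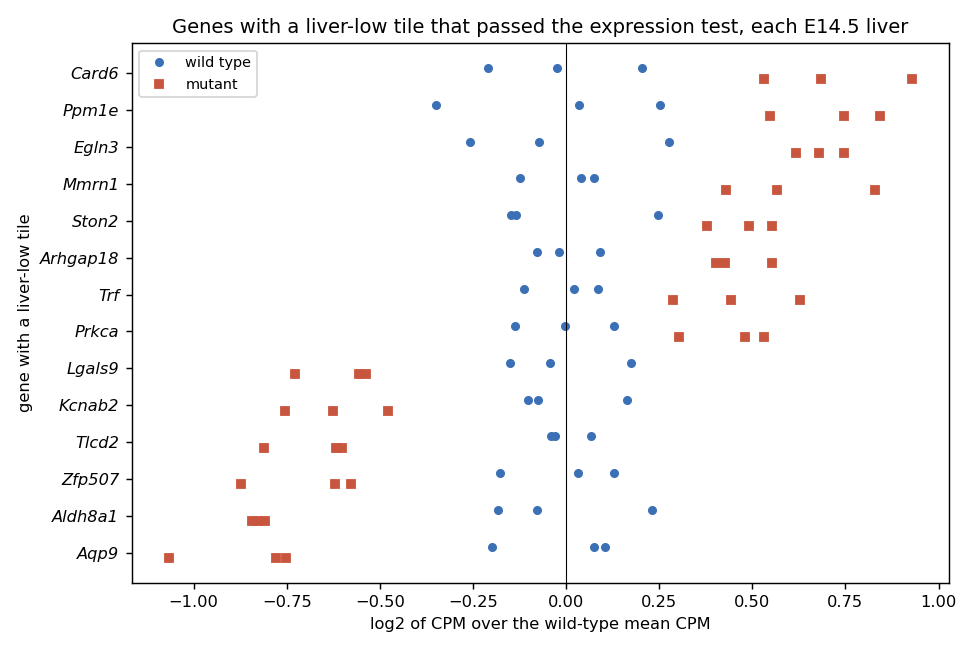
Expression of 14 genes with a liver-low tile that passed the test, as log2 of the CPM of each E14.5 liver over the wild-type mean, for 3 wild-type (circles) and 3 mutant (squares) livers. Genotypes do not overlap at any of the 14, which largely follows from choosing the genes by a test on these same livers. The largest fall is that of Aqp9.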

How the data were processed

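Per the study's methods, the authors aligned bisulphite reads with Bismark and Bowtie2 to mm9 carrying FVB substitutions, removed duplicates and merged strands. Their deposited files give counts of converted and unconverted reads per CpG, and a rounded percent that was not used. RNA reads were aligned with TopHat, and the deposited RNA values are raw HTSeq read counts per Ensembl gene, made without strand, so a gene and an antisense partner cannot be told apart.

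Counts were summed over 1 kb tiles. The groups were taken from the labels. Tiles were tested with edgeR 4.0.16 in R 4.3.3, with an intercept per library and the libraries of the comparison only, and Benjamini-Hochberg adjustment over all 574594 tiles. The 7 tile comparisons each had their own fit. Genes passing edgeR's default filter (14183) were tested with TMM scaling, and CPM are counts scaled by the library totals after TMM. When genes were matched to tiles, 137 second models of a symbol were left out. The SE of a log2 fold change came from a limma fit of log2 CPM. Alternatives were DESeq2 1.42.0, limma 3.58.1 on the logit, other thresholds, coverage, thinned counts and left-out libraries. The tests were tried on simulated data.

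The tiles, the gene and motif lists and the tests were chosen with earlier results of these data known. The tiles named had the steepest wild-type fall, listed genes, the largest called differences or a gene that passed the expression test. Some of these, and some others, were picked for the text after their values were seen: Slc44a1, Capzb, C5ar1, Rbl2, Oasl1, Lcp1, Cgnl1, Treml2 and BC021614. Same-numbered RNA libraries deviated together (r = 0.125, 0.226 and 0.409 over 14183 genes), so the replicate block counts as a pairing there, found from the data and not the design. A gene that passed the expression test is not reported here. H3K4me1 libraries were not analysed here. Depth limits single tiles to the counting error of their reads.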

Additional observations from a re-analysis of the deposited data

How the results depend on the processing

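Over 178 alternatives to 25 results, 128 stayed within the limits set (1.5 times for a count, 1 SD between replicates for a mean) and 50 moved. Thresholds of 80% and 20% left 36 liver-low tiles, and 60% and 40% gave 5393. Called lower in mutant liver were 36 and 5382 of these at E14.5, beside 50.9% of all tiles, and 36 and 5358 at E18.5, beside 22.7%. Between mutant liver stages, calls higher at E18.5 were 2 and 505 under these thresholds, 54 by limma (beside 0.201% of all tiles) and 6 to 187 with a library left out (beside 0.0164% to 5.62%), and calls lower were 0 and 17, 1 by limma, 1 at 10 reads per CpG and 0 to 3 with a library left out.

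Calls of more methylation in mutants were 0 and 30 (embryos), 0 and 60 (E14.5) and 0 and 54 (E18.5) under these thresholds. In embryos limma gave 0, coverage of 10 gave 2 and leaving out a library gave 1 to 7. In E14.5 livers thinned counts gave 8 and leaving out a library gave 4 to 7, and in E18.5 livers leaving out a library gave 0 to 46. Calls of less methylation in embryos were 0 to 1 with a library left out.

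The mean genotype difference was 4.104 points in embryos, and 1.38 and 3.64 points in E14.5 livers, when the tiles were chosen on the other wild-type replicate. Leaving out each library for these means, and mutant E18.5 replicate 1 for the levels and thresholds at E18.5, was added after seeing the data. Genes with a liver-low tile called higher in mutants were 5 with a TSS within 10 kb of a tile, beside 0.698% of all genes. They were 26 with no filter (beside 1.44%), 25 with the replicate block (1.85%) and 2 to 12 with a library left out (0.188% to 0.675%). Called lower were 13 with no filter (beside 0.98%) and 11 with the block (1.39%). The methylation libraries share only a number in 2 pairs, and a replicate block there gave 7 calls in place of 8 in E18.5 livers and the same counts in the other methylation tests. The cause of these changes was not tested.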
